A study of Mus musculus with 7 samples.

Results

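The interferon-induced transmembrane (Ifitm) genes Ifitm1, Ifitm2, Ifitm3 and Ifitm6 were examined in single neutrophils of healthy and inflamed mice. The members were chosen by name, and all 4 had a row in each of the 7 count matrices, among 28719 gene names in the union of those matrices. Neutrophils, sorted as CD11b+ Ly6G+ cells that exclude propidium iodide, came from wild-type male C57BL/6J mice and were captured in droplets with 3′ end counting of unique molecular identifiers (UMIs). Healthy blood, bone marrow and spleen gave 1 library each in each of 2 runs, from 3 untreated mice pooled, at 6 weeks of age in run 1 and at 8 weeks in run 2, so that the 3 tissues of a run shared mice. The inflammation library held 5 conditions told apart by hashtag oligomers, each 1 pool of 3 mice: blood of healthy mice (healthy blood), blood and joint lavage of mice killed 7 days after the first of 2 K/BxN serum injections (arthritic blood, arthritic joint), and bronchoalveolar or peritoneal lavage 3 hours after IL-1β given into the nose or the peritoneum (IL-1β lung, IL-1β peritoneum). Treated mice were 8 weeks old at their first injection or dose, so the arthritic mice were 7 days older when killed, and the age of the healthy mice of this library was not given in the sources used here. K/BxN serum holds autoantibodies that cause arthritis, and IL-1β is a cytokine that recruits neutrophils.

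Ifitm proteins are small membrane proteins that hinder the fusion of enveloped viruses with cell membranes. Ifitm3 and Ifitm2 act mainly at endosomes and Ifitm1 largely at the cell surface, while Ifitm6 is a mouse member that is less well described. Interferons bind receptors that signal through JAK kinases to STAT factors, and these bind short promoter motifs, the interferon-stimulated response element (ISRE) and the gamma-activated site (GAS). Isg15, a ubiquitin-like protein made in response to interferon, was used to mark interferon-responding cells.

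The 4 members lay within 63.1 kb of chromosome 7 (GRCm38, GENCODE vM21): Ifitm2 at chr7:140954837-140955987 on the minus strand, Ifitm1 at chr7:140967221-140969825 on the plus strand, Ifitm3 at chr7:141009586-141010770 on the minus strand and Ifitm6 at chr7:141015699-141017924 on the minus strand. Isg15 was at chr4:156199424-156200818 on the minus strand. The stretches from 100 bases before to 30 bases after the RefSeq start (GRCm38.p6) are shown because the members differed in their relation to Isg15. Capitals mark matches to the ISRE letters (GAAA, 2 bases of any kind, GAAA) on either strand.
Ifitm1: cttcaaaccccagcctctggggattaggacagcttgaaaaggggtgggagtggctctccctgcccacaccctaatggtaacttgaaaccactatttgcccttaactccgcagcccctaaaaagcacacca
Ifitm2: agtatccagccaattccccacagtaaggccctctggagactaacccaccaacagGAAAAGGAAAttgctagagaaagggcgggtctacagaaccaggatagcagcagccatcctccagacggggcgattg
Ifitm3: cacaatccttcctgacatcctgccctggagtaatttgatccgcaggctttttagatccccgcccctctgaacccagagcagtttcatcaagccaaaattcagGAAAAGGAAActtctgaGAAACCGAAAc
Ifitm6: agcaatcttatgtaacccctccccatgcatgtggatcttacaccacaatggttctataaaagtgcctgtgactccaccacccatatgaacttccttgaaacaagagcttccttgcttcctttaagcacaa
Isg15: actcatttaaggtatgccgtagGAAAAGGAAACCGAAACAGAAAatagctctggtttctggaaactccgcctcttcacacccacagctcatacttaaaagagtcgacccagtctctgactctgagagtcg
These stretches were at chr7:140967976-140968105 for Ifitm1, chr7:140955932-140956061 for Ifitm2, chr7:141010715-141010844 for Ifitm3, chr7:141016863-141016992 for Ifitm6 and chr4:156200789-156200918 for Isg15. Over the whole window of 250 bases before and 50 after the start, Isg15 had 3 overlapping ISRE matches, Ifitm3 had 2, Ifitm2 had 1, and Ifitm1 and Ifitm6 had 0. Each window rests on 1 RefSeq start, which was 36 and 16 bases downstream of the nearest GENCODE start for Ifitm1 and Ifitm6, but 855 and 1032 bases downstream of the farthest of their 3 starts, whose surroundings were not searched. The Ifitm3 matches were at bases 3 to 12 and 20 to 29 after the start, and the Ifitm2 match was 46 to 37 bases before it. The GAS letters (TTC, 3 bases of any kind, GAA), which read the same on both strands, matched once in Ifitm3, at bases 14 to 22 and overlapping its downstream ISRE match, and once in Ifitm6, 10 to 2 bases before the start. Of 32851 such windows in the RefSeq table, 3.44% held at least 1 ISRE match, 0.225% held 2 or more and 8.30% held a GAS match. Among 40 listed interferon-stimulated genes, 32 had a window and 17 of these (53.1%) held an ISRE match, against 3.99% of 27025 genes. A match describes letters and is not evidence of binding.

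**Figure D1:**
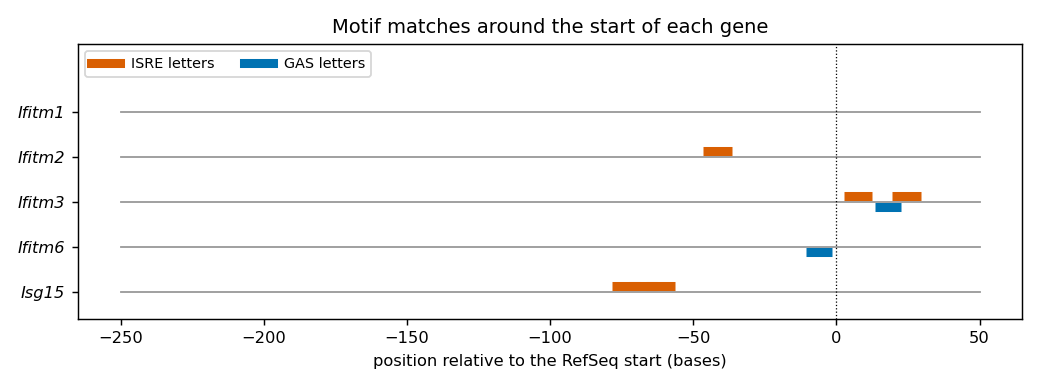
Matches to ISRE and GAS letters (coloured bars) around the RefSeq start of each Ifitm member and Isg15, by distance in bases. Isg15 held 3 ISRE matches, Ifitm3 held 2 and Ifitm2 held 1.

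The longest stretch shared letter for letter between transcripts of 2 members was 69 bases, in Ifitm2 and Ifitm3, then 64 bases in Ifitm1 and Ifitm3 and 40 bases in Ifitm1 and Ifitm2. Ifitm6 shared at most 25 bases with any other member. These stretches were shorter than the cDNA reads that the study describes, and how reads were shared out between members was not tested.

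After the limits on cells, 16938 neutrophils remained, 12175 from healthy tissues and 4763 from the inflammation library, with 287 to 2801 cells and 939662 to 9899602 UMIs per condition and 1317888 to 8323389 UMIs per healthy library. Neutrophil identity was checked with 15 markers, all found in each of the 11 groups, S100a8 being at 65599 to 237763 counts per 1000000 UMIs (CPM). Between 0 and 36 cell barcodes were shared by any pair of libraries. Spleen run 1 stood apart from spleen run 2, since 7 granule genes took 11.3% of its neutrophil UMIs against 2.18%, and levels in spleen are given by run, and the main tests between tissues, tertiles and Isg15 classes also without spleen run 1. The study used different chemistries for the healthy and the inflammation libraries, so levels were compared within each dataset and not between them. Values below are CPM over summed neutrophils with exact 95% Poisson intervals, which cover counting error only. A fall or rise of a summed level can come from fewer or more expressing cells or from less or more RNA per cell, which cannot be told apart in sums.

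Expression of all 4 members was higher in every inflamed condition than in healthy blood of the same library. Together the members made up 0.448% of UMIs in healthy blood, 0.691% in arthritic blood, 0.920% in the arthritic joint, 0.890% in the IL-1β lung and 1.01% in the IL-1β peritoneum. With 1 pool per condition no test between conditions was possible. Of the 16 ratios to healthy blood, 16 were above 1 and 7 were at least 2-fold, namely 0 of 4 members in arthritic blood, 2 of 4 in the joint, 2 of 4 in the lung and 3 of 4 in the peritoneum. The same 2-fold rise was seen in 0.639%, 12.1%, 14.5% and 14.6% of all genes with at least 50 CPM in either group, in that order of conditions. No member was at least 2-fold lower, against 3.08%, 20.7%, 44.8% and 45.6% of these genes. The median of all these genes was below healthy blood in each condition, by a log2 ratio of -0.34, -0.38, -0.85 and -0.87, and moved to 0.18, 0.32, 0.35 and 0.37 with TMM scaling. All 16 member ratios were above both medians and stayed above 1 with either scaling, and 15 of 16 were at least 2-fold with TMM, where 3.23%, 24%, 33.5% and 33% of genes were too. At a limit of 1.5-fold in CPM, 13 of 16 passed, against 2.22%, 17.2%, 19.7% and 19.1% of genes.

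Ifitm2 was the most abundant member in all 5 conditions, with 49.0% to 59.8% of the UMIs of the 4 members. Since each UMI stands for 1 captured transcript end, no length scaling was applied. Its level was 2443 CPM in healthy blood (2352 to 2536), 3385 in arthritic blood (3316 to 3456), 5194 in the joint (5149 to 5239), 5240 in the lung (5117 to 5366) and 6056 in the peritoneum (5900 to 6216). Joint and lung, neighbours in this order, had a CPM ratio of 0.991 (0.966 to 1.02), and which was higher depended on the scaling: over healthy blood the joint and lung ratios were 3.16 and 4.03 with TMM factors and 2.36 and 2.05 with each cell weighted equally. Ifitm2 was 2.13-fold (2.05 to 2.21), 2.15-fold (2.05 to 2.24) and 2.48-fold (2.37 to 2.60) higher in joint, lung and peritoneum than in healthy blood, and 1.39-fold (1.33 to 1.45) higher in arthritic blood. Within the arthritic mice, the joint exceeded blood 1.53-fold (1.5 to 1.57).

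Ifitm1 had its highest CPM in the joint, although with TMM factors joint and peritoneum were alike in their ratios to healthy blood (3.12 and 3.13). It measured 1093 CPM in healthy blood (1032 to 1156), 1541 in the lung (1474 to 1609), 1803 in the peritoneum (1718 to 1891), 1927 in arthritic blood (1875 to 1981) and 2295 in the joint (2266 to 2325). The intervals of peritoneum and arthritic blood overlapped, and those of the other neighbours in the order did not. Ratios to healthy blood were 1.76 (1.66 to 1.88) in arthritic blood, 2.1 (1.98 to 2.23) in the joint, 1.41 (1.31 to 1.51) in the lung and 1.65 (1.53 to 1.78) in the peritoneum.

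Ifitm3 was lowest in healthy blood and highest in the peritoneum. Its level was 790 CPM in healthy blood (739 to 844), 1070 in the lung (1014 to 1127), 1342 in arthritic blood (1298 to 1387), 1411 in the joint (1388 to 1435) and 1651 in the peritoneum (1569 to 1735). Arthritic blood and joint lay close together, with a ratio of 1.05 (1.01 to 1.09). Against healthy blood Ifitm3 was 1.70-fold (1.58 to 1.83) higher in arthritic blood, 1.79-fold (1.67 to 1.91) in the joint, 1.35-fold (1.24 to 1.47) in the lung and 2.09-fold (1.92 to 2.27) in the peritoneum. Isg15, by contrast, was at 123, 157, 809, 246 and 391 CPM in healthy blood, arthritic blood, joint, lung and peritoneum, so the joint held 6.58-fold (5.56 to 7.84) the level of healthy blood and 5.14-fold (4.66 to 5.69) that of arthritic blood.

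Ifitm6 was the least abundant member in all 5 conditions, though its lung interval overlapped that of Ifitm3, and it had the highest ratios at the IL-1β sites. It was at 151 CPM in healthy blood (129 to 176), 251 in arthritic blood (232 to 271), 296 in the joint (286 to 307), 618 in the peritoneum (569 to 671) and 1049 in the lung (994 to 1106). The lung exceeded healthy blood 6.93-fold (5.91 to 8.18) and the peritoneum did so 4.08-fold (3.44 to 4.87), while arthritic blood and joint exceeded it 1.66-fold (1.40 to 1.97) and 1.96-fold (1.68 to 2.30). Between the IL-1β sites, Ifitm6 was the one member higher in the lung, at 1.70-fold (1.54 to 1.87) the peritoneal level, whereas the lung to peritoneum ratios of Ifitm1, Ifitm2 and Ifitm3 were 0.855, 0.865 and 0.648. No member passed 2-fold in the joint over arthritic blood, where 16.1% of genes were at least 2-fold higher and 8.58% lower, or in the lung over the peritoneum, where 7.80% were higher and 8.62% lower. Ifitm6 in the joint was 0.282 of the lung level and 0.479 of the peritoneal level, past the 2-fold limit that 11.2% and 11.9% of genes also passed downwards, and no member was at least 2-fold higher in the joint, against 24.3% and 24.7% of genes. The lung and peritoneal ratios of Ifitm6 to healthy blood were 13 and 7.74 with TMM factors, and 4.82 and 3.13 with each cell weighted equally.

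**Figure D2:**
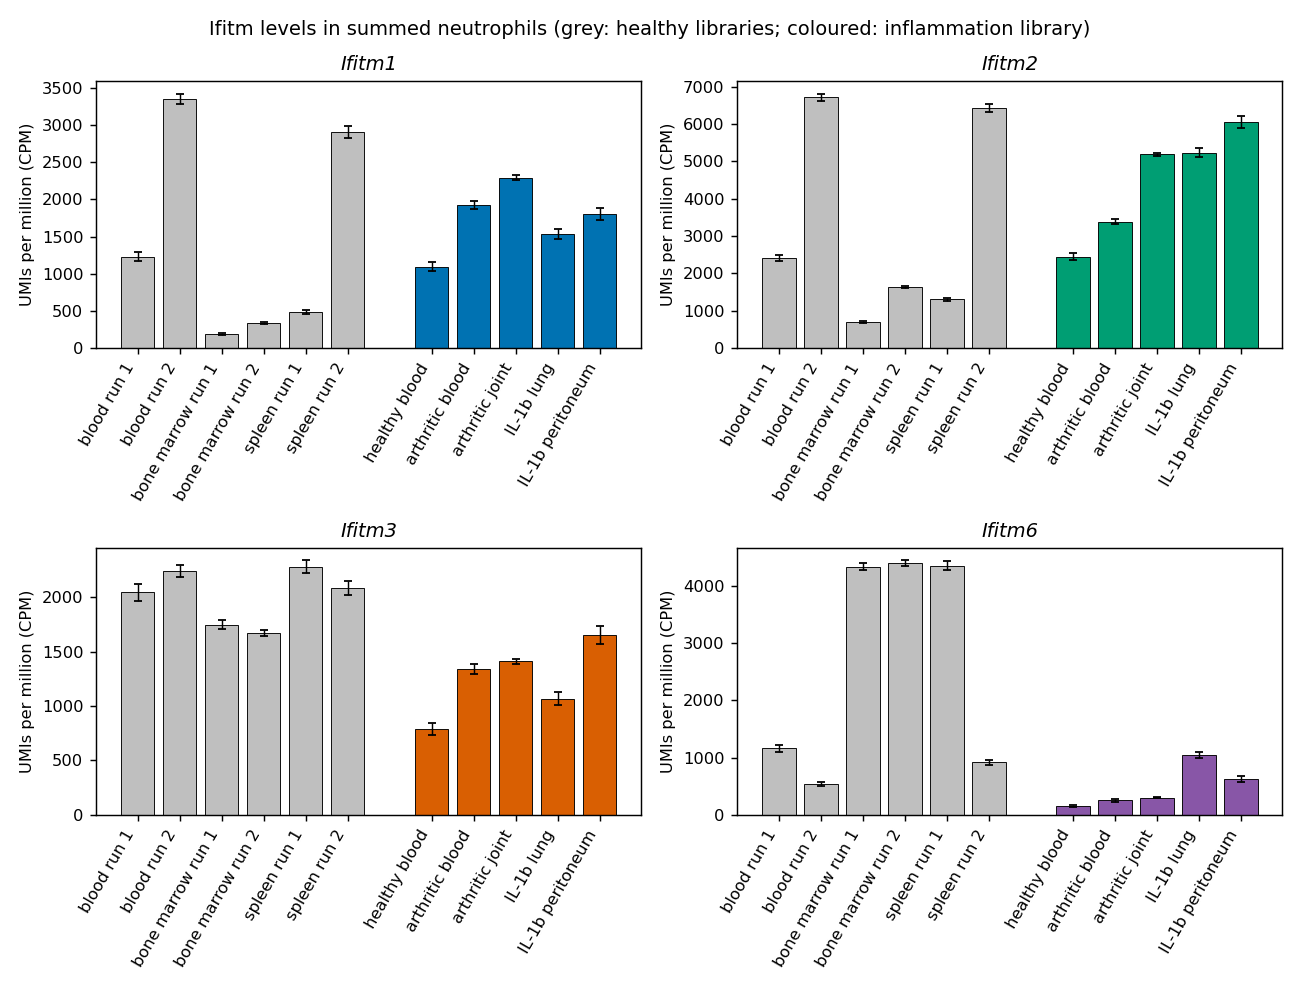
CPM of each member in summed neutrophils of the 6 healthy libraries (grey) and the 5 conditions of the inflammation library (coloured), with exact 95% Poisson intervals that cover counting error only. Ifitm2 reached 6056 CPM in the IL-1β peritoneum, and Ifitm6 was at 4341 to 4403 CPM in both bone marrow libraries and in spleen run 1, against 539 to 1162 CPM in the other healthy libraries. Grey and coloured bars come from different chemistries and are not compared.

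**Figure D3:**
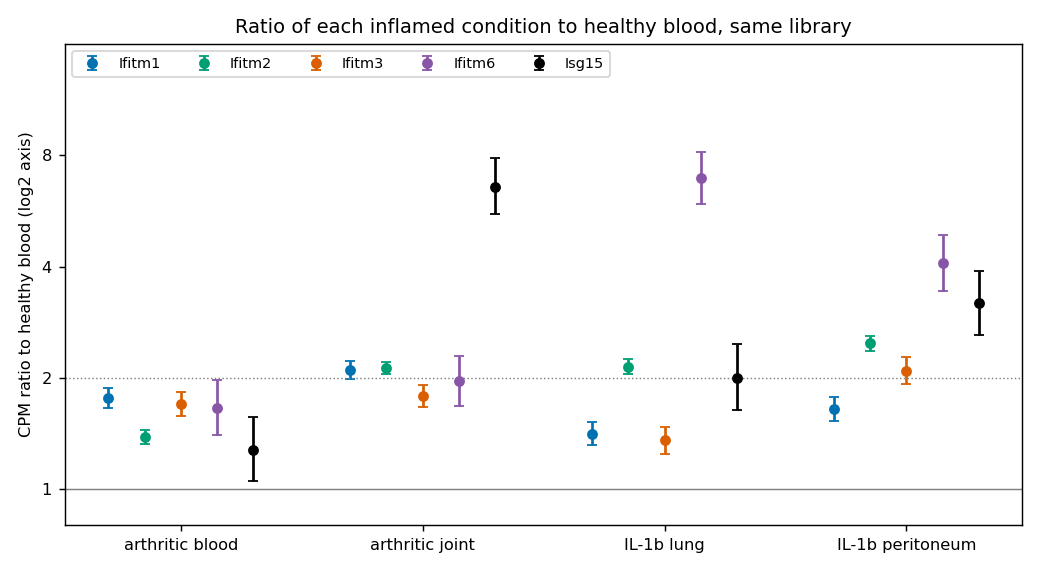
Ratio of CPM in each inflamed condition to healthy blood of the same library on a log2 axis, with 95% counting intervals, and dotted line at 2-fold. All 16 member ratios lie above 1, Ifitm6 reaches 6.93 in the lung and Isg15 reaches 6.58 in the joint.

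The share of cells with a UMI was compared after thinning each cell to 1000 UMIs, which left out 152, 133, 118, 81 and 56 shallower cells from healthy blood, arthritic blood, joint, lung and peritoneum. Median depths before thinning were 2856, 3756, 3560, 4294 and 3845 UMIs in these cells. Ifitm2 was found in 81.9% of healthy blood cells (95% exact binomial interval 77.5 to 85.8), 90.4% of arthritic blood cells, 95.2% of joint cells, 95.5% of lung cells and 98.7% of peritoneal cells (96.3 to 99.7). For Ifitm1 the shares were 44.1%, 54.0%, 58.8%, 51.7% and 55.0%, and for Ifitm3 they were 48.0%, 64.1%, 52.6%, 52.1% and 65.4%. Ifitm6 was found in 12.7% of healthy blood cells (9.43 to 16.6), 17.3% and 18.4% of arthritic blood and joint cells, 34.6% of lung cells (29.1 to 40.4) and 32.5% of peritoneal cells (26.5 to 38.9). Of the 16 shares, 11 had an interval that did not overlap that of healthy blood. The same count was not made over all genes, so whether 11 of 16 is unusual cannot be said. Free RNA was not measured in the inflammation library. As a reference from another capture, the shares were read in B-cell-like cells of spleen run 2 (median 1459 UMIs before thinning), where they were 8.09% for Ifitm1, 18.6% for Ifitm2, 8.61% for Ifitm3 and 1.25% for Ifitm6. These cells can express interferon-inducible genes themselves, and their shares set no limit for the inflammation library. Unthinned shares ran from 58.3% to 79.5% for Ifitm1, 78.5% to 98.4% for Ifitm2, 56.7% to 79.1% for Ifitm3 and 22.9% to 43.9% for Ifitm6 over the 5 conditions.

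The relation to interferon response was examined by splitting cells into those with at least 1 Isg15 UMI and those with none, after thinning to equal depth. Ifitm3 was the member that the tests called higher in Isg15-positive cells. In Isg15-negative and Isg15-positive cells of the inflammation library its level was 752 and 1710 CPM in healthy blood, 1200 and 2291 in arthritic blood, 789 and 2989 in the joint, 1341 and 2522 in the peritoneum, and 1104 and 1156 in the lung. The ratios were 2.27 (1.66 to 3.07), 1.91 (1.61 to 2.25), 3.79 (3.55 to 4.05), 1.88 (1.5 to 2.35) and, for the lung, 1.05 (0.762 to 1.41). Over the 5 conditions, with condition as a block, Ifitm3 was higher by 1.10 on the log2 scale (SE 0.13, adjusted p = 3.9e-08, edgeR quasi-likelihood test, two-sided, Benjamini-Hochberg over 2300 genes), 1 of the 4 members against 3.13% of all genes tested (2.91% higher, 0.217% lower). Ifitm1 differed by -0.17 (SE 0.10), Ifitm2 by -0.08 (SE 0.07) and Ifitm6 by 0.36 (SE 0.14, adjusted p = 0.30), none of which passed. The 5 conditions are unlike, with 1 pool each in 1 library. These p-values thus describe how alike the change was across them, and not replication of any condition. By condition Ifitm1 was lower in Isg15-positive cells beyond counting error in the peritoneum, with a ratio of 0.519 (0.377 to 0.700), and in the joint, with 0.917 (0.865 to 0.971), and its interval held 1 in the other 3 conditions. Ifitm6 was higher beyond counting error in the joint, with a ratio of 1.69 (1.45 to 1.98), and Ifitm2 in arthritic blood, with 1.14 (1.01 to 1.29). Their intervals held 1 in the other conditions. In the joint 74.7% of 744 Isg15-positive cells held an Ifitm3 UMI against 44.1% of 1939 Isg15-negative cells. These shares were 94.5% and 95.4% for Ifitm2 and 25.5% and 15.6% for Ifitm6.

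A cell without an Isg15 UMI can still hold Isg15 transcripts, so the negative class is not free of Isg15-expressing cells. Among cells with no Isg15 UMI at full depth, Ifitm3 in the joint was 1.07-fold the level of healthy blood, against 1.79-fold over all cells. In the same cells Ifitm1 and Ifitm2 kept joint ratios of 2.17 and 2.17, and Ifitm6 had 1.63. Ifitm3 ratios in Isg15-negative cells of arthritic blood, lung and peritoneum were 1.75, 1.40 and 1.84. Per cell, Spearman's rho between Ifitm3 and Isg15 was 0.08 to 0.40 over the 5 conditions, while it was -0.10 to 0.04 for Ifitm1, -0.09 to 0.04 for Ifitm2 and -0.03 to 0.13 for Ifitm6. These are descriptions over cells of 1 library, which share depth limits and a pool of mice.

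The same split in healthy tissues gave the same member. Ifitm3 in Isg15-negative and Isg15-positive cells was at 1845 and 3051 CPM in blood run 1, 1943 and 3663 in blood run 2, 1918 and 3149 in bone marrow run 1, 1854 and 3772 in bone marrow run 2, 2164 and 3583 in spleen run 1, and 1951 and 3308 in spleen run 2. Every Isg15-positive class was above every negative class. The difference was 0.62 on the log2 scale (SE 0.09, adjusted p = 3.4e-11, edgeR with library as a block), higher in 6 of 6 libraries with ratios of 1.64 to 2.03. In all, 2 of the 4 members passed, against 4.31% of 2902 genes tested (2.21% higher, 2.1% lower). The other was Ifitm6, which was lower by 0.91 (SE 0.10, adjusted p = 2.3e-17), and lower in 5 of 6 libraries with ratios of 0.358 to 1.01. Ifitm1 and Ifitm2 differed by 0.06 (SE 0.09) and 0.10 (SE 0.09) and did not pass, although in CPM Ifitm1 was higher in 4 of 6 libraries (3 intervals above 1, ratios of 0.728 to 1.57) and Ifitm2 in 5 of 6 (4 intervals above 1, ratios of 0.989 to 1.56). They differed by 0.22 and 0.27 without TMM factors, where the median of all genes moved from -0.04 to 0.09. Without spleen run 1, Ifitm3 was higher by 0.67 and Ifitm6 differed by -0.70, and both passed. Without the block, no member passed in either dataset.

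Granule genes moved with the same split in healthy cells, since all 7 of 7 were lower in Isg15-positive cells, with a median log2 difference of -1.91 against -0.04 over all genes, and they were therefore held within limits in a further comparison. Within granule tertiles, Ifitm3 was higher by 0.71 in healthy and 1.29 in inflamed cells, and Ifitm6 in healthy cells was lower by 0.26 (adjusted p = 0.041). Without thinning, the Ifitm6 difference in healthy cells was -0.18 (adjusted p = 0.45). In the inflammation library 0 of 4 tested granule genes passed. A test of the difference between the datasets, with all cells thinned to 500 UMIs, called Ifitm6 (1.61, SE 0.27, adjusted p = 0.00012, edgeR), 1 of 4 members against 0.204% of genes, and did not call Ifitm3 (0.51, SE 0.19, adjusted p = 0.43). Cells with a UMI of 8 monocyte markers made up 0.273% to 5.56% of neutrophils per group and 5.18% in the joint, and without them the Ifitm3 differences were 0.63 and 1.03. Of the interferon-stimulated genes other than Isg15, 25 of 26 tested were higher in Isg15-positive healthy cells and 22 of 22 in inflamed cells, with median log2 differences of 1.5 and 1.94 against -0.04 and -0.05 over all genes. Samd9l was the one that did not pass, at 0.61 (SE 0.22) in healthy cells. Of the list's most abundant genes, Slfn4, a schlafen gene of myeloid cells, rose by 1.27 (SE 0.12) and 1.5 (SE 0.12), and Trim30a, a tripartite-motif gene, by 0.84 (SE 0.13) and 1.24 (SE 0.15). Slfn1 rose by 0.47 (SE 0.09) and 0.42 (SE 0.12).

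**Figure D4:**
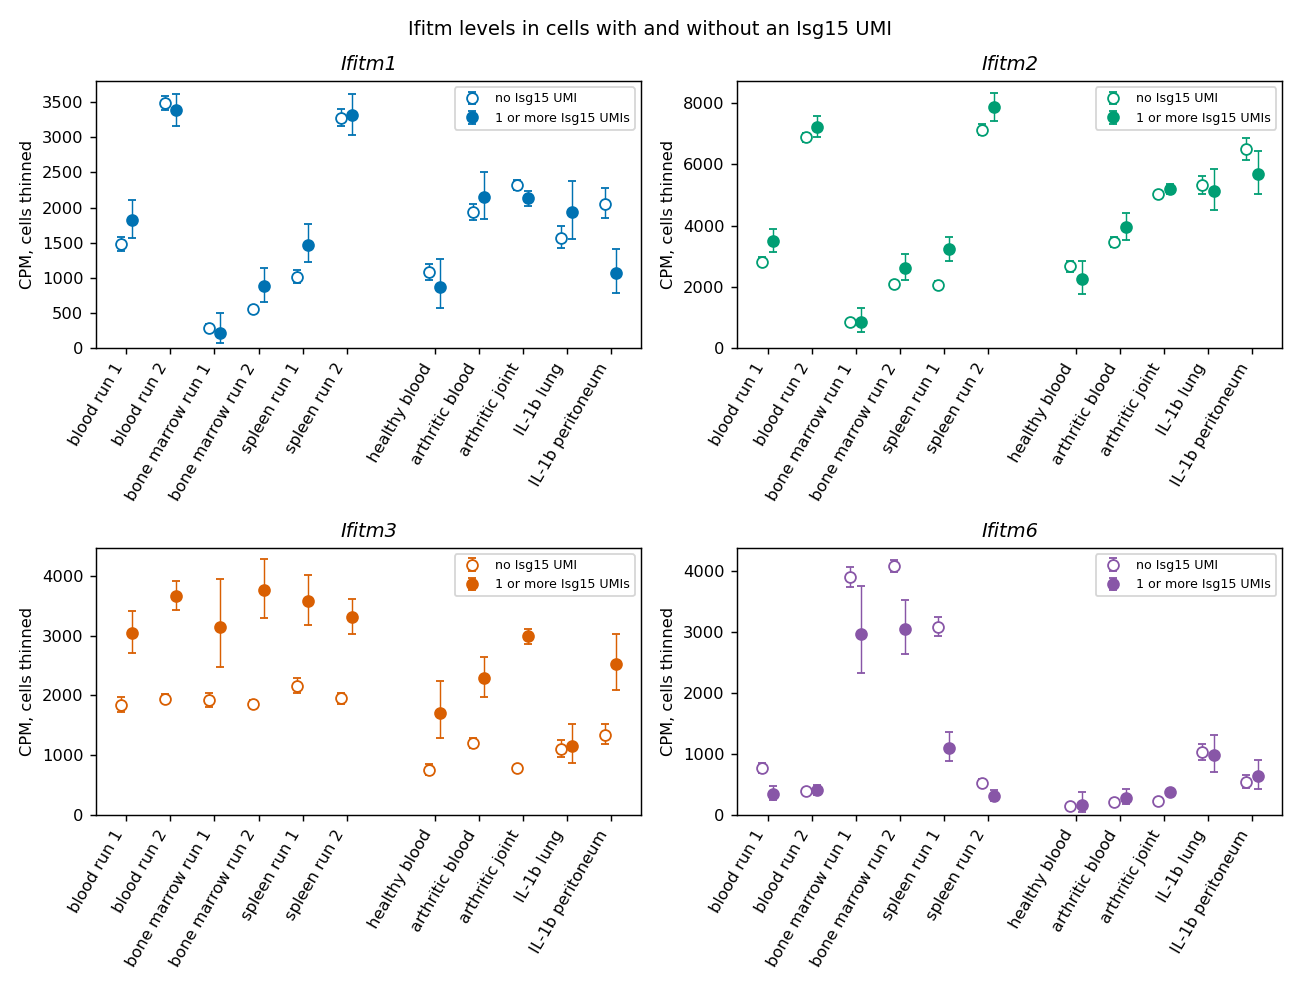
CPM of each member in cells with no Isg15 UMI (open) and with 1 or more (filled), with exact 95% Poisson intervals, in the 6 healthy libraries (cells thinned to 500 UMIs) and the 5 conditions (1000 UMIs). Ifitm3 is higher in Isg15-positive cells beyond counting error in all 6 healthy libraries and in 4 of 5 conditions, up to a ratio of 3.79 in the arthritic joint, the IL-1β lung being the exception at 1.05 (0.762 to 1.41).

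Healthy tissues were used as a reference for where the members are found at rest. Bone marrow neutrophils were rich in Ifitm6 and poor in Ifitm1 and Ifitm2, and Ifitm3 lay in a narrow range. Ifitm6 was at 4341 CPM in run 1 marrow, 4403 in run 2 marrow, 4355 and 919 in the spleens of the same runs and 1162 and 539 in their blood. Ifitm1 marrow levels were 184 and 336 CPM, those of spleen 484 and 2909 and those of blood 1231 and 3356, again run 1 before run 2. For Ifitm2 the marrow held 705 and 1634 CPM, the spleen 1310 and 6434 and the blood 2405 and 6721. In both genes the run 1 value was below the run 2 value in every tissue. Ifitm3 ranged from 1675 to 2282 CPM over the 6 libraries, with 1749 and 1675 (marrow), 2282 and 2087 (spleen) and 2046 and 2240 (blood). Ifitm6 was the most abundant member in both bone marrow libraries and in spleen run 1, with 51.7% to 62.2% of the UMIs of the 4 members, and Ifitm2 was so in the other 3 healthy libraries.

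With run as a block, blood exceeded bone marrow in Ifitm1 by 2.57 on the log2 scale (SE 0.33, adjusted p = 0.0039) and in Ifitm2 by 1.47 (SE 0.26, adjusted p = 0.0089), and the difference for Ifitm6 was -3.02, lower in blood (SE 0.56, adjusted p = 0.011), all by edgeR over 7471 genes. These 3 of 4 members compare with 21.4% of all genes called. Ifitm3 did not pass, with -0.09 (SE 0.26), and its direction flipped to 0.32 without TMM factors, where the median of all genes moved from -0.02 to 0.40. Erythroid markers also moved with blood, all 9 being found in blood run 2 and 8 in blood run 1, at a summed 13961 and 693 CPM against 200 to 478 CPM in marrow, and their part was not tested. Without blood run 2, which left 1 blood library, the differences were 2.57 for Ifitm1, 1.46 for Ifitm2 and -3.18 for Ifitm6. Spleen exceeded bone marrow in Ifitm1 by 2.00 (SE 0.33, adjusted p = 0.025), 1 of 4 members against 2.11% of genes. Without spleen run 1 this was 2.49, with 1.44 for Ifitm2 and -2.48 for Ifitm6. Without spleen run 2 it was 1.51, with 0.93 for Ifitm2. Without bone marrow run 1 it was 2.48, with 1.42 for Ifitm2 and -2.28 for Ifitm6, and without bone marrow run 2 it was 1.57. Each of these fits left 1 library in a tissue, so only effect sizes are given. Between blood and spleen 0 of 4 members and 0% of genes were called by edgeR, although 739 genes had an unadjusted p under 0.05 and DESeq2 called 10. Ifitm6 differed by -1.68, lower in blood (SE 0.55, adjusted p = 0.46). This rested on spleen run 1, being -0.38 without it and -2.56 without spleen run 2, where Ifitm1 differed by 1.11. Without bone marrow run 1 or run 2 the Ifitm6 difference was -1.50. Each of these fits left 1 library in a tissue. The p-values rest on the scatter between libraries that is left after tissue and run are fitted. Only 2 pools of mice, each giving all tissues, underlie them. Without the run block, 0 of the 12 member comparisons passed, and 0% of all genes were called in each contrast. Leaving out 1 library leaves 1 in its tissue, so whether the calls hold without it cannot be judged.

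Maturation was followed by ordering healthy cells by the percentage of their UMIs from 7 granule genes that early neutrophils express (Camp, Ngp, Ltf, Lcn2, Chil3, Cd177 and Wfdc21), cut at 0.331% and 1.65% into tertiles, the highest being the least mature. Ifitm1 had a mean of 2420 CPM ± 971 (SD, n = 5 libraries) in the lowest tertile, 2056 ± 1144 (n = 6) in the middle and 183 ± 222 (n = 6) in the highest. Ifitm2 had 5790 ± 1974, 4066 ± 2208 and 1072 ± 600. Ifitm6 ran the other way, with 376 ± 200, 884 ± 730 and 4424 ± 828, and Ifitm3 stayed at 2172 ± 511, 2245 ± 144 and 1762 ± 246. The highest tertile differed from the lowest by -3.30 (SE 0.24, adjusted p = 1.1e-15) for Ifitm1, by -1.68 (SE 0.17, adjusted p = 4.6e-11) for Ifitm2 and by 4.41 (SE 0.21, adjusted p = 3.2e-22) for Ifitm6, with library as a block in edgeR. Bone marrow run 1 gave no value to this test, since 16 of its cells were in the lowest tertile. All 3 differences had the same direction in 5 of 5 libraries, and without spleen run 1 they were -3.09, -1.64 and 4.32. Ifitm3 was higher by 0.42 (SE 0.17, adjusted p = 0.035) with TMM factors, did not pass without spleen run 1 (adjusted p = 0.097) and turned to -0.30 (SE 0.18, adjusted p = 0.13) without them, where the median of all genes moved from -0.01 to -0.75. Its CPM was lower in the highest tertile in 4 of 5 libraries, each beyond counting error, with ratios of 0.700 to 1.11 over the 5. All 4 members passed in the fit with TMM factors, 2 higher and 2 lower, as did 45.8% of 3409 genes (22.8% higher, 23% lower).

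**Figure D5:**
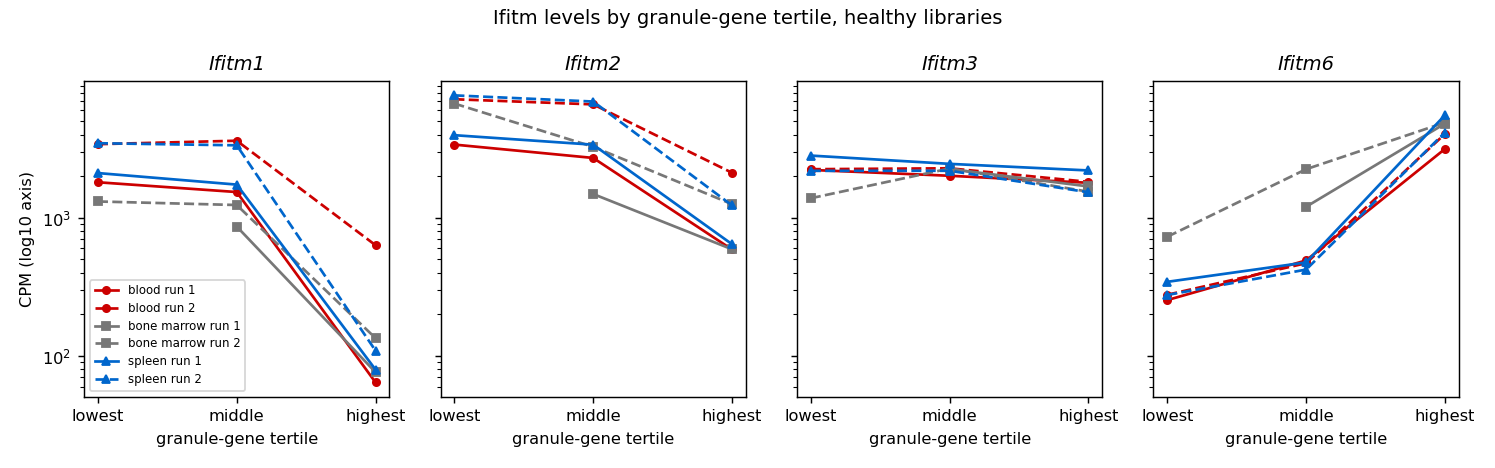
CPM (log10 axis) of each member in the lowest, middle and highest tertile of the granule-gene percentage, 1 line per healthy library. Sums of under 20 cells are not drawn, which leaves out the lowest tertile of bone marrow run 1. In the 5 libraries with both, Ifitm1 is lower and Ifitm6 higher in the highest tertile than in the lowest, while Ifitm3 stays between 1386 and 2819 CPM.

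The tertile limits of the healthy cells were carried to the inflammation library to describe where Ifitm6 was found. In the lowest tertile Ifitm6 was at 132 CPM in healthy blood, 175 in arthritic blood, 269 in the joint, 384 in the lung and 285 in the peritoneum. In the middle tertile it was at 229, 295, 416, 1463 and 603 CPM, and in the highest tertile, which held at least 20 cells in the peritoneum alone, at 766 CPM. In the peritoneum the highest tertile exceeded the lowest 2.69-fold (1.94 to 3.81) for Ifitm6 and 1.36-fold (1.26 to 1.48) for Ifitm2. The ratios were 1.04 (0.900 to 1.2) for Ifitm1 and 1.07 (0.920 to 1.25) for Ifitm3. Ifitm1 and Ifitm2 were thus not lower there, whereas they were lower in the healthy libraries. The granule genes behind the tertiles differed, however. Lcn2 made 11732 of the 14950 summed granule CPM in the peritoneum, against 6510 of 82680 in bone marrow run 2. Ngp made 103 and 30441 of these. The highest tertile of the peritoneum therefore need not hold cells as immature as that of the healthy libraries. In CPM, Ifitm6 was thus above healthy blood within the lowest and the middle tertile in every other condition. The intervals of arthritic blood overlapped those of healthy blood. In the lowest tertile the peritoneum (285 CPM) lay near the joint (269 CPM). Granule genes were also higher at the IL-1β sites. Of those with 50 CPM in either group, 4 of 4 were at least 2-fold above healthy blood in the lung and 4 of 4 in the peritoneum. In arthritic blood 3 of 4 were (all but Cd177), and in the joint 0 of 2. The shares of all genes were 14.5%, 14.6%, 0.639% and 12.1%. Ngp and Cd177, at 17.8 and 44.5 CPM in healthy blood, entered only through the higher condition. In the joint they were at 15.4 and 16.8 CPM and did not enter, so the limit partly set these counts. Camp, Ltf and Chil3 entered in no condition. Lcn2, an iron-chelator binding protein, was at 814, 2186, 830, 4109 and 11732 CPM in healthy blood, arthritic blood, joint, lung and peritoneum. Wfdc21, a secreted WAP-domain protein, was at 1056, 2382, 1038, 2218 and 2923 CPM. Ngp, a secondary granule protein, was 13.1-fold (8.36 to 21.8) and Cd177, a surface protein of neutrophils, 6.06-fold (4.50 to 8.32) above healthy blood in the lung. The part of granule-gene content in the Ifitm6 ratios was not tested further.

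The other interferon genes set the members in context. Among interferon-stimulated genes with at least 50 CPM, 0 of 17 were 2-fold above healthy blood in arthritic blood, 19 of 28 in the joint, 4 of 17 in the lung (2 were 2-fold lower) and 10 of 21 in the peritoneum (1 lower), with median log2 ratios of 0.10, 1.66, 0.07 and 0.94. Over all genes 0.639%, 12.1%, 14.5% and 14.6% were 2-fold higher, and 44.8% and 45.6% were 2-fold lower in lung and peritoneum. The limit was 50 CPM in either group, for the lists as for all genes. A gene under 50 CPM in healthy blood, such as Cxcl10 at 8.02 CPM, entered only through the condition where it was high. Its 2-fold rise was wholly or partly set by this limit, which also made the denominators differ between conditions. Some genes outside the naming rule are given because the counts are small, and these were chosen after their values were seen. In the lung Isg15, Cxcl10, Ifi204 and Gbp2 were higher, Cxcl10, a chemokine that attracts T cells, moving from 8.02 to 70.9 CPM and reaching 556 CPM in the peritoneum. Rsad2, an antiviral enzyme, was lower in the lung, at 77 CPM against 164 in healthy blood. The split moved with the scaling, since with TMM factors 2 of 17, 24 of 28, 8 of 17 and 19 of 24 of these genes were 2-fold higher, against 3.23%, 24%, 33.5% and 33% of all genes, and 0 were 2-fold lower in any condition. Slfn4 was at 399, 443, 852, 670 and 764 CPM in healthy blood, arthritic blood, joint, lung and peritoneum, and Slfn1 and Trim30a stayed within 0.771 to 1.30 of healthy blood. Of the receptor and signalling genes, 0 of 11, 1 of 11, 3 of 12 and 2 of 11 were 2-fold higher in the same order of conditions, and 0, 1, 2 and 1 were 2-fold lower (0 of 10, 1 of 11, 4 of 12 and 7 of 12 higher and 0, 0, 1 and 0 lower with TMM factors). Beside the shares of all genes just given, the joint count, 1 of 11 on both scales, did not exceed the background, nor did that of the lung with TMM factors. The gene higher in the joint was Irf7, at 161 CPM against 75.7 in healthy blood, and those higher in the lung were Socs3, Jak2 and Socs1. Irf1 was lower in joint and lung. Socs3, an inhibitor of cytokine receptor signalling, was at 175, 181, 153, 1491 and 1925 CPM, and Jak2, a kinase of the interferon gamma receptor, at 69.5, 53.3, 88.4, 378 and 331 CPM. Jak1, a kinase of both interferon receptors, was at 434 CPM in healthy blood and 222 in the lung. Ifngr1, the ligand-binding chain of the interferon gamma receptor, stayed within 0.846 to 1.28 of healthy blood. Between Isg15 classes 3 of 11 signalling genes passed in each dataset, against 4.31% of all genes in healthy and 3.13% in inflamed cells. Among them were Irf7, a factor that amplifies interferon production (1.63 in healthy and 2.42 in inflamed cells on the log2 scale), and Irf9, a DNA-binding interferon regulatory factor (0.79 and 1.05). Socs3, Jak1, Jak2 and Ifngr1 did not pass.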

How the data were processed

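UMI counts per gene and cell were deposited by the authors as raw counts, made with Cell Ranger on mm10, with the authors' table giving the condition and ImmGen type of each inflammation cell. Counts were summed over neutrophils (type GN in that table, or neutrophil-like clusters by fixed markers in the healthy libraries, where clusters were rebuilt with scanpy 1.11.5) with at most 5% mitochondrial UMIs and 281 to 1877 genes. No doublet caller was run, since the upper gene limit follows the study. Sums were tested with edgeR 4.0.16 (quasi-likelihood, TMM, filterByExpr, adjusted p 0.05 over all genes) and, as an alternative, DESeq2 1.42.0, in R 4.3.3, tested on simulated data. Sums of under 20 cells were left out. Run was the block between tissues because the tissues of a run share mice; deviations of same-run libraries correlated with Pearson's r of 0.615, 0.565 and 0.653 over 7471 genes. Cells were thinned to 500 (healthy) or 1000 UMIs (inflammation) for Isg15 classes. Cell Ranger version and instrument were not used here. Text names the 4 members, Isg15, other Ifitm rows, the 4 most abundant genes of each list over the 5 conditions, and the 3 genes most like each member, except items not reported here. Members and lists were chosen with earlier results of these data known. Alternatives within granule tertiles, without monocyte-marker cells, at 1000 or more UMIs and without TMM factors were chosen after seeing the data.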

Additional observations from a re-analysis of the deposited data

Results flagged for a closer look

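The change of Ifitm6 from Isg15-negative to Isg15-positive cells differed between the inflammation library and the healthy libraries. With all cells thinned to 500 UMIs and both datasets in 1 edgeR fit, the difference between the datasets was 1.61 on the log2 scale (SE 0.27, adjusted p = 0.00012), 1 of 4 members against 0.204% of 1960 genes. Ifitm6 was lower in Isg15-positive cells in 5 of 6 healthy libraries and higher in 4 of 5 conditions, the lung being the exception. Within the inflammation library 1 of 5 intervals lay above 1, that of the joint, and the test did not pass (0.36, adjusted p = 0.30). In healthy cells the difference of -0.91 became -0.26 within granule tertiles and -0.18 (adjusted p = 0.45) without thinning. The same difference for Ifitm3 was 0.51 (SE 0.19, adjusted p = 0.43). The run 2 libraries, from mice of 8 weeks, the age at which mice of the inflammation library were treated, had Ifitm6 ratios of 1.01 in blood, 0.749 in bone marrow and 0.575 in spleen. Chemistry and dataset cannot be told apart in this comparison, blood was the one tissue in both datasets, and granule genes were lower in Isg15-positive cells in the healthy libraries, whose part was not tested in this fit.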

How the results depend on the processing

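Of 7 member ratios past 2-fold of healthy blood, the count became 15 with TMM-scaled CPM (3.23% to 33.5% of all genes per condition) and 13 at a 1.5-fold limit (2.22% to 19.7%). Between healthy tissues 4 of 12 comparisons passed, where 21.4%, 2.11% and 0% of all genes were called per contrast. Without the run block, and over all deposited cells, 0 passed. In both of these settings 0% of all genes were called in each contrast, so these counts are not particular to the members. Leaving out 1 library leaves 1 in its tissue, so whether the calls hold without it cannot be judged. Without the replicate block, 0 members passed between Isg15 classes in healthy cells (2 with it) and 0 in inflamed cells (1 with it). Without thinning, 1 passed in healthy cells. Ifitm3 between the highest and lowest tertile reversed to -0.30 with library totals in place of TMM factors, and its call was also lost without the library block, without a filter on low counts, with cells cut at the median, and without blood run 2 or spleen run 1. The cause was not tested. In all, 49 of 60 alternatives for the main counts stayed within 1.5 times. The number of Isg15-positive cells limits healthy blood, lung and peritoneum, with 31, 45 and 46.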

Other observations

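Over the 11 groups, each centred on its run or dataset, genes whose log2(CPM + 10) was most like each member were named by Pearson's r among 2113 genes, as a description of libraries that share mice and processing. Ifitm1 was most like Oasl2, an interferon-induced gene (r 0.98), Igfbp6 (0.97) and Ezr, which links membrane and actin (0.97). Ifitm2 had r of 0.97 with Slc11a1, a metal transporter of phagosomes, and 0.96 with Adprh. Ifitm6 was most like Glrx, a glutaredoxin (0.95), Dstn, an actin-severing protein (0.94), and Anxa3 (0.93). Ifitm3 had no neighbour as close, with Azin1 at 0.86, Trafd1 at 0.77 and Lrg1 at 0.76. Ifitm1 and Ifitm2 had r of 0.93 with each other, and Ifitm6 and Ifitm1 had -0.68.

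The other Ifitm rows were low. Ifitm10 reached 14.5 CPM, Ifitm5, a gene of bone-forming cells, reached 37.2 CPM and had no row in the run 1 matrices, and Ifitm7 reached 39.5 CPM in blood run 1. Ifitm7 had 0 UMIs in all 5 conditions of the inflammation library, which allows up to 0.303 CPM in the joint (3 counts of 9899602 UMIs) and up to 3.19 CPM in the peritoneum.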
